A study of Mus musculus with 9 samples.

Results

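The genes examined were 10 enzymes and carriers that build triglyceride or bring fatty acids into a fat cell: Gpam, Agpat2, Lpin1, Dgat1, Dgat2, Pck1, Lpl, Cd36, Slc27a1 and Fabp4. They were taken by name, as 10 of 21938 protein-coding genes of GENCODE M21 on mm10 (GRCm38). Peaks were read in 9 lists, 1 library each, at 2 ranges. A promoter peak was one that reached within 1 kb of the start of a protein-coding transcript, and the neighbourhood was the gene body plus 20 kb on each side. With 1 library per group there was no test of any difference, and a list can lack a peak through its depth or its background.

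The lists came from 3 assays. Ets1, which binds DNA as a member of the ETS group of regulators, was mapped by CUT&Tag (an antibody-tethered transposase) in beige adipocytes, in adipocytes after cold stress (CS) and in adipocytes at room temperature (RT). The acetyl mark H3K27ac, found at active promoters and enhancers, was mapped by CUT&Tag in EA+/+, EC+/+, EAKO and Flox adipocytes, and open chromatin by ATAC-seq in EAKO and Flox adipocytes. The beige cells were grown for 6 days in differentiation culture from the stromal vascular fraction of male C57BL/6J mice aged 3 to 4 weeks. All other libraries came from mature adipocytes of inguinal white fat, the layer that floats after collagenase digestion, of male mice aged 8 to 10 weeks. CS mice were wild type C57 and had spent 7 days in the cold, and RT mice were wild type C57 without cold. EA+/+ mice carried an Ets1 cassette at the Hipp11 locus, silenced by a floxed stop, together with Adipoq-cre, in which the promoter of the adiponectin gene drives Cre in adipocytes, and EC+/+ mice carried the cassette with no Cre. EAKO mice carried floxed Ets1 (exons 2 to 7) and Adipoq-cre, and Flox mice carried the floxed allele with no Cre.

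Fat cells store fatty acids as triglyceride on a glycerol backbone. Gpam, Agpat2 and Lpin1 add the first chains to glycerol phosphate and remove the phosphate, Dgat1 and Dgat2 add the last chain, and Pck1 supplies glycerol phosphate when glucose is scarce (glyceroneogenesis). The fatty acids arrive through Lpl, the lipase that frees them from blood lipoproteins, through Cd36 and Slc27a1 at the cell membrane, and on Fabp4, which carries them inside the cell. Several of these genes are classical targets of the nuclear receptor Pparg. Triglyceride made in this way feeds the heat production of beige fat in the cold.

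The lists differed in size before any gene was considered. They held 30553 (beige), 14858 (CS) and 4056 (RT) Ets1 peaks. H3K27ac gave 38484 peaks in EA+/+, 33713 in EC+/+, 74682 in EAKO and 86834 in Flox, and ATAC gave 82839 in EAKO and 88977 in Flox. The read totals that the study states were close for CS and RT and for EAKO and Flox H3K27ac, higher for beige than for CS and for EA+/+ than for EC+/+, and lower for EAKO than for Flox ATAC. Since MACS2 values depend on depth and background, a peak is placed by the rank of its −log10 q within its own list (top 1% being among the strongest hundredth), and its −log10 q is not compared between lists. Of 8 adipocyte markers, between 0 (RT Ets1) and 6 (EA+/+ H3K27ac) had a promoter peak, and Adipoq and Cidec had none in any list. Of 5 markers of adipocyte progenitors, 5 had an H3K27ac promoter peak in EAKO and 5 in Flox, 3 in EA+/+ and 5 in EC+/+, and 2 to 4 of 5 endothelial markers did. Of 5 macrophage markers at most 2, and of 3 muscle markers at most 1, had one in a list. The part of such cells in the values below was not tested. Across exons 2 to 7 of Ets1, EAKO had 3 H3K27ac and 2 ATAC peaks, none on an exon, against 5 and 4 in Flox, with 1 of each on an exon, and no other list had any there.

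DNA under chosen Ets1 peaks is printed here for Gpam, Agpat2, Lpin1, Pck1 and Slc27a1, and not for the other genes. Among those others, Dgat1 and Dgat2 had beige Ets1 peaks stronger than any printed. The printed stretches number 9. Each is the part within 75 bases of the peak summit that lies inside the peak and outside annotated exons, read 5′ to 3′ along the strand of the gene from RefSeq's GRCm38.p6 genome. The search covered 2 motifs on both strands. They were the ETS motif CCGGAA, which reads TTCCGG on the opposite strand, and the nuclear receptor motif AGGTCA, which reads TGACCT there. CCGGAA is longer than the GGAA/T core that the paper gives for Ets1, which was not searched for. A stretch without CCGGAA can still hold GGAA. Capitals mark a motif. The upstream site of Gpam (chr19:55139379-55139529, minus strand) and its inner site (chr19:55103686-55103822, minus strand) were the stronger 2 of its 4 beige peaks. The promoter site of Agpat2 (chr2:26604552-26604702, minus strand) came from CS. The inner promoter of Lpin1 (chr12:16589826-16589934, minus strand), an upstream site of Lpin1 (chr12:16620345-16620495, minus strand) and the inner promoter of Slc27a1 (chr8:71570386-71570533, plus strand) came from beige cells. The remaining sites are shown as CS and RT peaks that beige cells lacked, near Pck1 in CS (chr2:173151831-173151981, plus strand), in Lpin1 in CS (chr12:16574343-16574493, minus strand) and near Gpam in RT (chr19:55128554-55128662, minus strand).
Gpam upstream site, beige: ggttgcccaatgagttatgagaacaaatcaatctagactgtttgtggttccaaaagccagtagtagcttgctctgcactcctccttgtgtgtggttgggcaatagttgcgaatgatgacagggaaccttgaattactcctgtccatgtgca
Gpam inner site, beige: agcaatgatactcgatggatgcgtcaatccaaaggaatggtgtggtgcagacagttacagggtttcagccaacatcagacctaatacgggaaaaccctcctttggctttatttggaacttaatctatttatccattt
Agpat2 promoter, CS: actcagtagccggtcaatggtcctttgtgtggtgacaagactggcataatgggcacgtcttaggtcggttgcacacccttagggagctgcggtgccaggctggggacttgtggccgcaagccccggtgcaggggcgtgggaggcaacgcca
Lpin1 inner promoter, beige: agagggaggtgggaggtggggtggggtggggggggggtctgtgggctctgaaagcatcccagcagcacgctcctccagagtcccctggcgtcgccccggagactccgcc
Lpin1 upstream site, beige: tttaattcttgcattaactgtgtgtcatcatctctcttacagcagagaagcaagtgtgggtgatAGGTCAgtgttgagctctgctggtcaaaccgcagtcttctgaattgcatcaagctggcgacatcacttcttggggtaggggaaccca
Slc27a1 inner promoter, beige: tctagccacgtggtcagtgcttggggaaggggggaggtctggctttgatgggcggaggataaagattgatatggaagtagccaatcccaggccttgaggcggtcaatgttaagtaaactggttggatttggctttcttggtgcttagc
Pck1 upstream site, CS: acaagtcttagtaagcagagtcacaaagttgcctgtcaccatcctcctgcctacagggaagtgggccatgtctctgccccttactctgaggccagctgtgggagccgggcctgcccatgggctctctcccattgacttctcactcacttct
Lpin1 intron site, CS: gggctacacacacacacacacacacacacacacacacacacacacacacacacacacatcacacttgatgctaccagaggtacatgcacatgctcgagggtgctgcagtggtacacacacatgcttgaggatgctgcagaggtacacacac
Gpam upstream site, RT: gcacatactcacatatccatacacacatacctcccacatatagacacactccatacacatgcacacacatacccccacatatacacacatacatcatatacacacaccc

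Neither motif occurred in 8 of the 9 stretches, and the Lpin1 upstream site held 1 AGGTCA. The genome's repeat masking covered 100 of 109 bases of the RT site near Gpam and 106 of 151 bases of the CS site in Lpin1, both rich in CA, against 0 bases of both beige Gpam sites, the Agpat2 site and the Slc27a1 site. Beige cells had such a peak too, at 64.2 kb from the start of Gpam, where 134 of 134 bases were masked. Masking covered 45 of 109 bases of the Lpin1 inner promoter and 34 of 151 bases of the Pck1 site. RefSeq promoter windows, 250 bases before to 50 after a start, were at hand for 6 of the 10 genes (Gpam, Agpat2, Lpin1, Pck1, Cd36, Slc27a1), in 9 windows. CCGGAA was in 1 of these 9 (Gpam), against 14.9% of 32851 windows in the whole table, and AGGTCA was in 3 of 9 (Cd36, Lpin1, Gpam), against 16.3%. The 300 bases around the summits of Ets1 promoter peaks were searched for the same 6 genes only. Dgat1, Dgat2, Lpl and Fabp4, with Ets1 promoter peaks of their own, were left out. CCGGAA stood in 0 of 4 of these member windows in beige cells and 0 of 5 in CS. The shares over all such windows were 28.4% of 10351 in beige cells, 25.3% of 6687 in CS and 18.6% of 773 in RT. AGGTCA stood in 1 of the 4 in beige cells (Gpam) and 1 of the 5 in CS (Slc27a1), where all windows gave 11.4% and 11.5%. These matches describe letters in a window and were not tested as binding sites.

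Ets1 lay at the promoters of 8 of the 10 genes in beige cells and of 7 in CS, and of 0 in RT. Over all protein-coding genes the shares with an Ets1 promoter peak were 45% in beige cells, 31.8% in CS and 3.87% in RT, and the RT count of 0 is read against that low share. H3K27ac lay at 5 promoters in EA+/+ and 8 in EC+/+ (48.3% and 50.1% of all genes), and at 9 in EAKO and 9 in Flox (58.7% and 62.1%). ATAC peaks lay at 8 promoters in EAKO and the same 8 in Flox (64.4% and 66.3%). Agpat2, Dgat1, Dgat2 and Lpl had a promoter peak in every list but RT Ets1, a pattern they shared with 4420 genes (20.1% of all). Cd36 and Pck1 stood at the other end. Pck1 had a promoter peak in CS Ets1 alone, like 48 genes in all, and the pattern of Cd36 (CS Ets1, EC+/+, EAKO and Flox H3K27ac, and no ATAC) was that of 2 genes in all. The Pck1 peak reached the 1 kb range only with its edge, its summit lying at −1142 bp. H3K27ac peaks of EA+/+ and EC+/+ just outside that range formed 1 site with it once overlapping peaks were merged. The members had a promoter peak in a median of 7 lists, against 5 over all genes. By median place, however, their promoter peaks stood lower than those of all genes in every list where they had any. The median place was top 29.7% for members and 23.9% for all genes in beige Ets1, and 42.6% and 27.2% in CS Ets1. It was 25.4% and 12.9% in EAKO H3K27ac, and 25.7% and 12.2% in Flox ATAC.

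**Figure D1:**
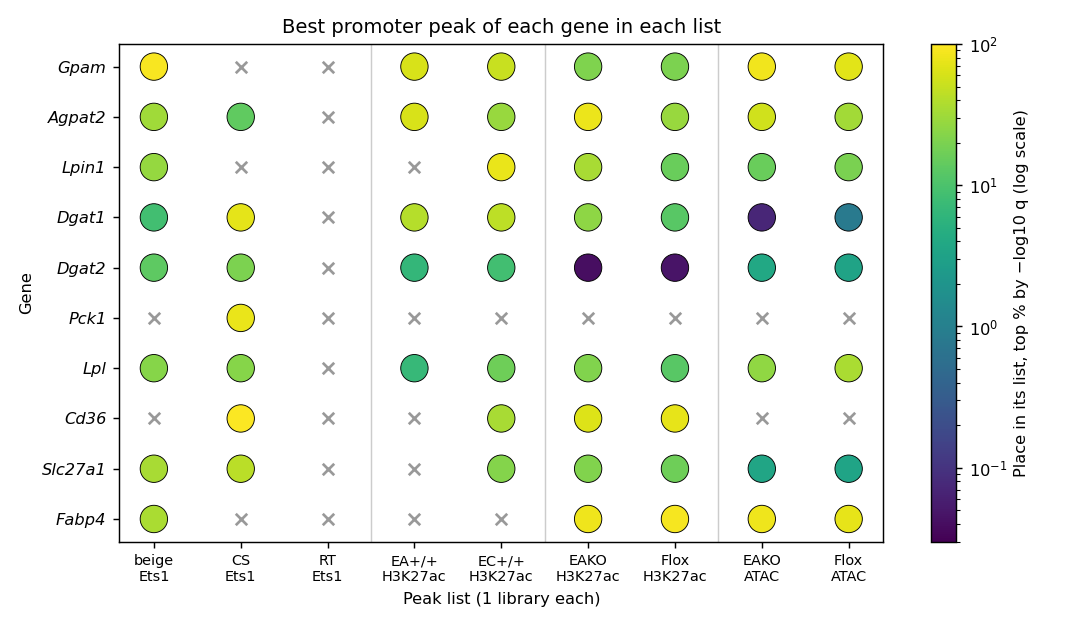
Best promoter peak of each of the 10 genes (rows) in each of the 9 peak lists (columns, 1 library each), coloured by its place in its own list (top percent by −log10 q, log scale, darker is stronger). A cross marks no peak within 1 kb of a coding start. Dgat2 in both EAKO and Flox H3K27ac and Dgat1 in EAKO ATAC are the darkest points, and the RT Ets1 column is empty.

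Gpam, the mitochondrial acyltransferase that starts triglyceride synthesis (ENSMUSG00000024978, chr19:55067268-55127238, minus strand), had no peak of any list at its outermost start. Its promoter peaks lay at an inner coding start, with summits from the gene's start at 27.6 kb in beige Ets1, 28.1 kb in EA+/+ and in EC+/+, 27.5 kb in EAKO and 27.6 kb in Flox H3K27ac. In beige cells this Ets1 peak was weak, with a −log10 q of 1.53 (top 92.4%). Higher values stood at an intron site 23.5 kb from the start in beige cells, near the start of a transcript that GENCODE marks for nonsense-mediated decay and that the coding starts leave out: the −log10 q was 12.5 in beige Ets1, 24.2 in EAKO and 14.4 in Flox H3K27ac, and 93.4 in EAKO and 110.2 in Flox ATAC. A further site lay upstream, at −12.2 kb in beige Ets1 with a −log10 q of 22.6. Peaks of both EAKO lists and both Flox lists covered it, with 16.9 in EAKO and 16.7 in Flox for H3K27ac and 62.5 in EAKO and 54.2 in Flox for ATAC. CS Ets1 had 1 peak in the whole neighbourhood, at 4.63 kb with 2.30, and RT Ets1 had 1, at −1.35 kb with 3.31, over the repeat printed above. None of the Gpam sites seen in beige cells had an Ets1 peak in CS or RT.

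Agpat2, which makes phosphatidic acid and whose loss causes lipodystrophy (ENSMUSG00000026922, chr2:26593057-26604417, minus strand), carried Ets1 at its promoter in beige cells, with a −log10 q of 11.03 (top 31.9%), and in CS, with 8.31 (top 13.8%). These peaks overlapped, and no RT peak lay in the neighbourhood. For H3K27ac the promoter value was 2.75 in EA+/+ (top 61.4%), at −386 bp, and 5.10 in EC+/+ (top 28.5%), at 1363 bp, so that both lists had a promoter peak but not at the same site. In EAKO it was 3.78 (top 77.7%) and in Flox 10.5 (top 29.1%), and for ATAC 13.6 in EAKO (top 54.9%) and 35.4 in Flox (top 32.0%). In each of these 3 comparisons Agpat2 stood lower in the list of the mice with Cre than in that of the controls, and so did Gpam. For H3K27ac in EAKO and Flox, Gpam was nearly level (top 20.7% in EAKO, 20.1% in Flox). Over all genes with both peaks, 47.4% stood higher in EA+/+ than in EC+/+. The share higher in EAKO than in Flox was 37.2% for H3K27ac and 36.1% for ATAC. Egfl7, an endothelial gene downstream, had promoter peaks inside the neighbourhood: the ATAC peak 17.5 kb from the Agpat2 start had 26.7 in EAKO and 75.3 in Flox.

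Lpin1, the phosphatidate phosphatase that also acts as a co-regulator in the nucleus (ENSMUSG00000020593, chr12:16535669-16610966, minus strand), likewise had its promoter peaks at an inner start, near 21.2 kb, and none at the outermost. Ets1 was there in beige cells, with 12.8 (top 27.6%), and not in CS or RT. For H3K27ac, EA+/+ had no peak there and EC+/+ a weak one of 2.54 (top 75.8%), while EAKO had 9.24 (top 35.0%) and Flox 19.4 (top 15.9%). ATAC gave 49.9 in EAKO (top 15.6%) and 56.9 in Flox (top 19.4%). Beige Ets1 had 5 further peaks around the gene, 2 upstream (11.4 at −8.14 kb and 10.5 at −9.45 kb) and 2 beyond its far end (6.78 at 77.8 kb and 8.57 at 84.7 kb), plus a weak one in an intron (1.46). EAKO and Flox H3K27ac covered all 4 sites outside the gene. The single CS peak, 5.91 at 36.5 kb, was the CA-rich site printed above. H3K27ac peaks of EA+/+ (3.59) and Flox (5.15) overlapped it, and none of EC+/+ or EAKO did.

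Dgat1, an acyltransferase that closes triglyceride synthesis (ENSMUSG00000022555, chr15:76502015-76511953, minus strand), had a single coding start with peaks of 8 lists. Ets1 reached a −log10 q of 34.0 in beige cells (top 8.48%) and 2.67 in CS (top 72.4%). H3K27ac gave 3.65 in EA+/+ (top 40.3%) and 4.01 in EC+/+ (top 43.9%), and 12.8 in EAKO (top 25.4%) and 24.5 in Flox (top 12.2%). Its ATAC peak was rank 60 of the EAKO list (188.5, top 0.0724%) and rank 730 of the Flox list (178.2, top 0.820%). Ranked by fold enrichment instead, these peaks stood at 5.15% in EAKO and 20.7% in Flox.

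Dgat2, the enzyme of the same last step that works on newly made fatty acids and at lipid droplets (ENSMUSG00000030747, chr7:99153658-99182719, minus strand), had the highest H3K27ac promoter values among the 10 genes in EAKO and Flox. The −log10 q was 193.5 in EAKO, rank 30 of 74682 peaks, and 197.1 in Flox, rank 40 of 86834. In the other H3K27ac pair it was 8.33 in EA+/+ (top 6.52%) and 9.74 in EC+/+ (top 8.50%). Ets1 at the promoter gave 24.1 in beige cells (top 13.5%) and 6.53 in CS (top 20.2%), and ATAC gave 99.0 in EAKO (top 3.88%) and 139.6 in Flox (top 3.28%). A second site in an intron, 27.3 kb from the start in beige cells, was the only one of 114 sites near the 10 genes (overlapping peaks of all lists merged) with a peak in all 9 lists. There Ets1 had 68.0 in beige cells, 5.05 in CS and 2.23 in RT. The peaks did not all share a position. The EA+/+ one (2.26 at 27.9 kb) joined through beige and Flox peaks and overlapped none of CS, RT, EC+/+ or EAKO. A further Ets1 site, at 41.4 kb in beige cells (80.8), CS (10.3) and RT (2.26), lay at the promoter of the neighbouring gene Uvrag. These were the 2 RT peaks near any member that had a CS peak over them.

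**Figure D2:**
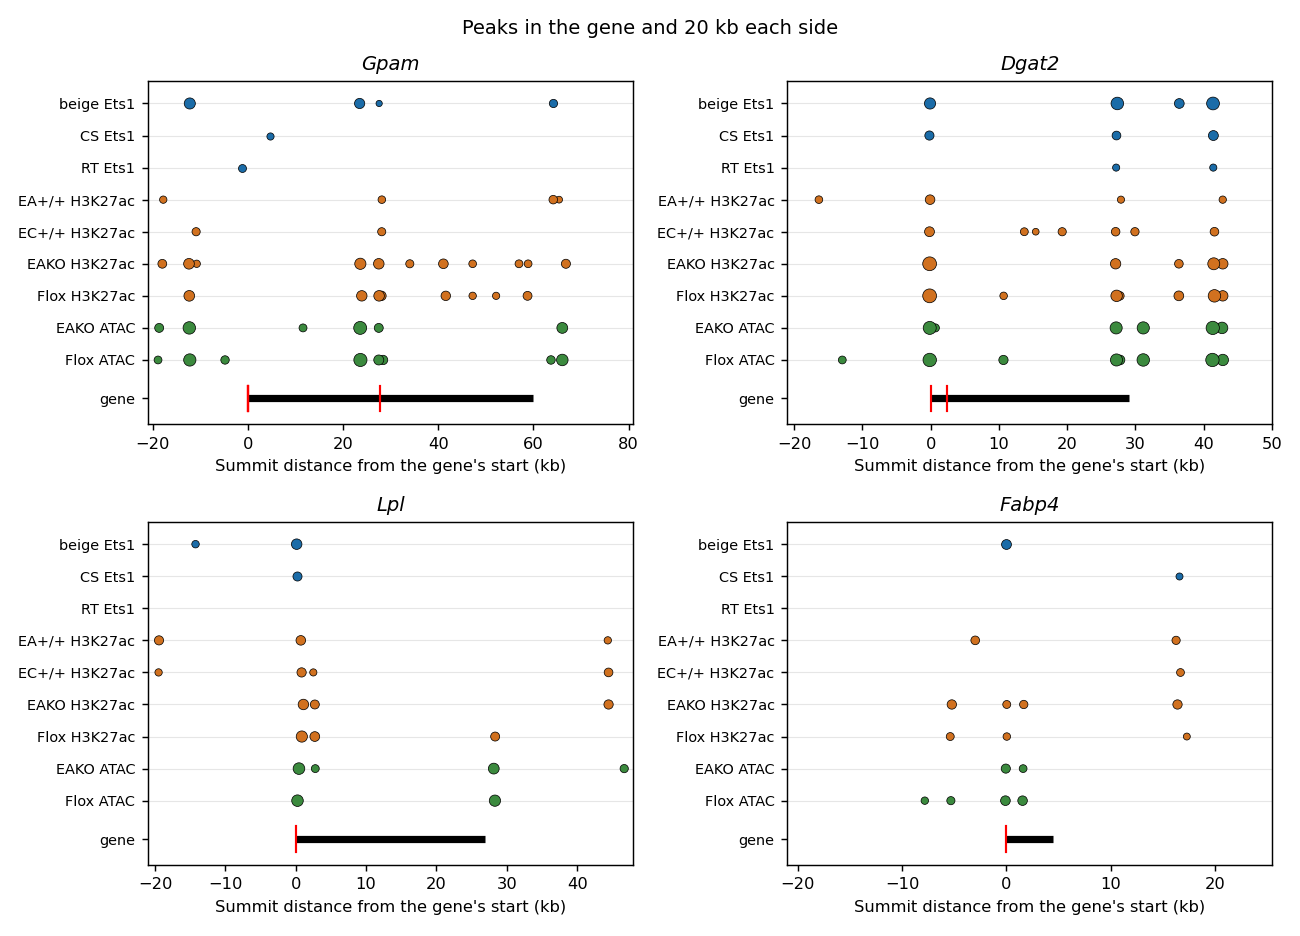
Peaks of the 9 lists in the neighbourhoods of Gpam, Dgat2, Lpl and Fabp4, placed by the distance of the summit from the start of the gene (kb, in the direction of transcription). Each row is 1 list, circles grow with the logarithm of the −log10 q, blue is Ets1, orange H3K27ac and green ATAC, the black bar is the gene and red ticks are coding starts. Gpam shows no peak at its outermost start. Dgat2 shows a circle in all 9 rows near 27 kb, that of EA+/+ at 27.9 kb.

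Pck1, the enzyme of glyceroneogenesis (ENSMUSG00000027513, chr2:173153048-173159273, plus strand), was the least marked of the synthesis genes. Ets1 had no peak in its neighbourhood in beige cells or RT and 2 in CS, of 2.40 at −1.14 kb (top 77.0%) and 3.64 at 7.46 kb. H3K27ac had no peak in the neighbourhood in EAKO or in Flox. EA+/+ had 1, of 5.18 at −1.30 kb, and EC+/+ had 3, of which the nearest was 3.23 at −1.23 kb, both just outside the 1 kb range. ATAC had no promoter peak, and a peak behind the gene at 6.47 kb in EAKO (26.8) and 6.48 kb in Flox (24.7).

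Lpl (ENSMUSG00000015568, chr8:68880491-68907448, plus strand) carried peaks of 8 lists over its first exon. Ets1 reached 15.0 in beige cells (top 23.2%) and 6.08 in CS (top 23.3%), almost the same place in lists of different length. H3K27ac gave 8.31 in EA+/+ (top 6.80%) and 6.85 in EC+/+ (top 16.7%), where Lpl stood higher in the knock-in. In the knock-out pair it gave 14.8 in EAKO (top 21.7%) and 24.3 in Flox (top 12.3%), and ATAC gave 33.2 in EAKO (top 26.1%) and 31.5 in Flox (top 35.5%), so that the knock-out list placed it lower for the mark and higher for open chromatin. A site behind the gene had ATAC peaks at 28.1 kb in EAKO (18.6) and 28.3 kb in Flox (25.7), and an H3K27ac peak in Flox (5.85) but not in EAKO. The reverse also occurred, with an H3K27ac peak near the gene in EAKO (6.89) that overlapped none in Flox.

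Cd36, the fatty acid translocase (ENSMUSG00000002944, chr5:17781690-17888801, minus strand), had no ATAC peak in its neighbourhood of 147.1 kb in either list. Ets1 had no peak there in beige cells or RT and 2 weak ones in CS, of 1.49 at an inner start (top 95.1%) and 2.14 in an intron. H3K27ac at the same inner start was absent in EA+/+ and gave 4.62 in EC+/+ (top 34.1%), 4.58 in EAKO (top 65.0%) and 3.43 in Flox (top 73.8%). The gene is long, with 6 coding starts, and no list had a peak at the outermost.

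Slc27a1, also called Fatp1, which takes up fatty acids and activates them (ENSMUSG00000031808, chr8:71568882-71587302, plus strand), had strong open chromatin at an inner start, 1.49 kb into the gene in EAKO (102.3, top 3.49%) and 1.52 kb in Flox (137.3, top 3.47%). Ets1 lay there in beige cells (10.1, top 34.6%) and in CS (4.05, top 42.6%). H3K27ac covered it in EAKO (15.1, top 21.2%) and Flox (18.4, top 16.8%). EA+/+ had no promoter peak, and the EC+/+ one (5.89, top 22.04%) lay at the outermost start instead. A site near 23.2 kb, seen in beige Ets1 (2.83), belonged to the promoter of Pgls.

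Fabp4, the fatty acid carrier of adipocytes and a standard marker of them (ENSMUSG00000062515, chr3:10204088-10208576, minus strand), had an Ets1 promoter peak in beige cells alone, of 9.75 (top 35.7%). In CS the one Ets1 peak of the neighbourhood lay 16.5 kb away (2.14). H3K27ac at the promoter was absent in EA+/+ and EC+/+ and weak in EAKO (3.31, top 82.3%) and Flox (2.64, top 89.6%), and ATAC was weak too, with 6.41 in EAKO (top 80.6%) and 8.79 in Flox (top 74.96%). EA+/+ had a peak of 4.89 at −2.99 kb that EC+/+ lacked. H3K27ac upstream of the gene gave 7.32 at −5.23 kb in EAKO and 3.31 at −5.38 kb in Flox.

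Cold was the first comparison. The 7 members that Ets1 marked at the promoter in CS (Agpat2, Dgat1, Dgat2, Pck1, Lpl, Cd36 and Slc27a1) were all unmarked in RT. The same held for 6209 of the 6973 genes so marked in CS, which were 28.3% of all genes. Being unmarked in RT was thus the rule among genes marked in CS, not particular to the members. No member had an Ets1 promoter peak in RT alone (0.383% of all genes). Near the members lay 16 CS peaks and 3 RT peaks. Of the CS peaks 14 overlapped no RT peak, or 87.5% (95% Wilson interval 64.0 to 96.5), against 88.0% of the whole CS list. Of the RT peaks 1 overlapped no CS peak, or 33.3% (6.15 to 79.2), against 55.9% of the RT list. The shares near the members had intervals that held those of the whole lists, and the CS list was itself the longer. With only as many of the best CS peaks as the RT list has, 3 of the 7 promoters remained (Agpat2, Dgat2, Lpl), and at a q-value of 0.001 there were 4 (those 3 and Slc27a1). The share over all genes was not computed under these settings, so the remaining counts have no background to be read against. The intervals here and below cover counting error only.

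Beige cells were set against CS, 2 preparations that differ in culture, age and cell source as well as in state. Both had an Ets1 promoter peak at 5 members (Agpat2, Dgat1, Dgat2, Lpl and Slc27a1), at the same site in 5 of 5, as for 95.2% of the 6254 genes with one in both. Gpam, Lpin1 and Fabp4 had one in beige cells alone (16.5% of all genes), and Pck1 and Cd36 in CS alone (3.28%). These last were weak, and at a q-value of 0.001 or with 500 bp promoters neither remained. Of the 5 genes with both, 4 stood higher in the beige list (Dgat1, Dgat2, Lpl, Slc27a1), as did 66.7% of all genes with both, and Agpat2 stood higher in CS. For Lpl the places were 23.2% in beige cells and 23.3% in CS. Ranked by fold enrichment, Lpl and Agpat2 both turned, Lpl standing higher in CS (23.0% in beige cells, 19.5% in CS) and Agpat2 in beige cells (33.6% in beige cells, 35.0% in CS). Near the members 18 of 25 beige peaks overlapped no CS peak, or 72% (52.4 to 85.7), against 78.7% of the list, and 9 of 16 CS peaks overlapped no beige peak, or 56.3% (33.2 to 76.9), against 56.0%.

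The knock-in pair asked whether added Ets1 in adipocytes changed the active mark. EA+/+ had an H3K27ac promoter peak at 5 members and EC+/+ at 8. None of the 10 had one in EA+/+ alone (7.16% of all genes), and Lpin1, Cd36 and Slc27a1 had one in EC+/+ alone (8.9%), although the EA+/+ list was the longer. By the outermost start only, Slc27a1 was the one left of these 3, and with the starts of all transcripts Slc27a1 had a peak in both lists. Among the 5 genes with both, 4 shared the site (all but Agpat2), and by −log10 q Dgat1, Dgat2 and Lpl stood higher in EA+/+ while Gpam and Agpat2 stood lower. Ranked by fold enrichment, Lpl alone of the 5 stood higher in EA+/+, and Dgat1 (65.0% in EA+/+, 60.9% in EC+/+) and Dgat2 (17.1% in EA+/+, 10.7% in EC+/+) stood lower. Over all 9036 genes with both, 47.4% stood higher in EA+/+. Near the members 18 of 32 EA+/+ peaks were single, or 56.3% (39.3 to 71.8), against 60.7% of the list, and 22 of 35 EC+/+ peaks, or 62.9% (46.3 to 76.8), against 54.9%. Progenitor markers moved the same way, with 3 of 5 promoter peaks in EA+/+ and 5 of 5 in EC+/+, as did macrophage markers (0 of 5 and 1 of 5). Adipocyte markers (6 of 8 and 5 of 8) and muscle markers (1 of 3 and 0 of 3) moved the other way. Endothelial markers were level (2 of 5 and 2 of 5). The part of any of these cells in the result was not tested.

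**Figure D3:**
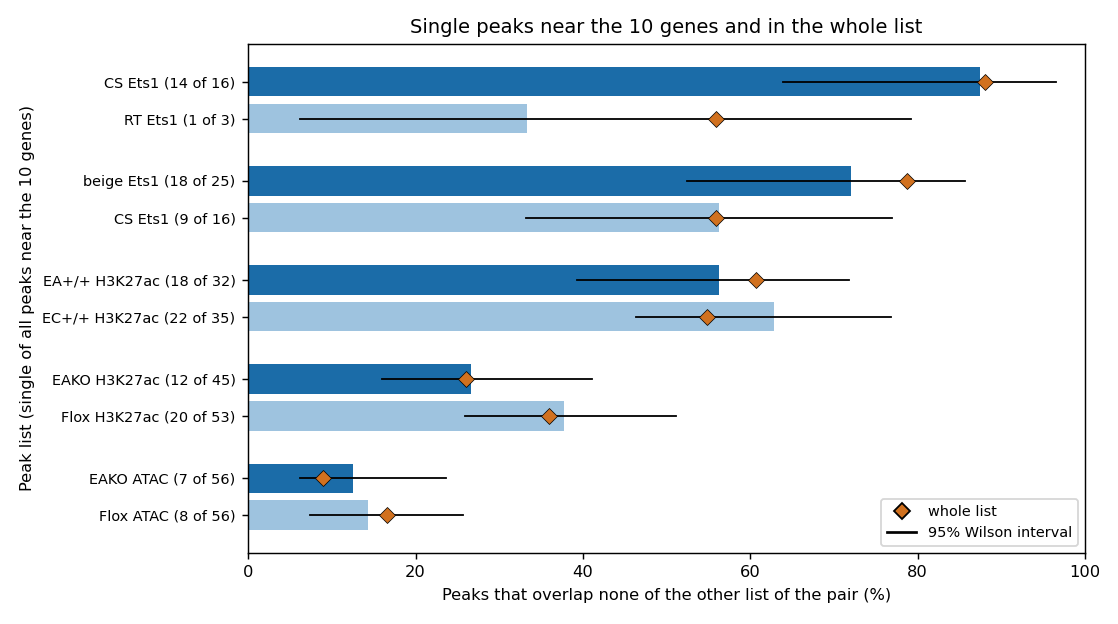
Share of the peaks near the 10 genes that overlap no peak of the other list, for both lists of each of the 5 comparisons (bars, dark for the first list of a pair and pale for the second, with 95% Wilson intervals), and the same share over the whole list (diamonds). All 10 diamonds lie inside the interval of their bar.

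The knock-out pair asked the opposite question for the mark and for open chromatin. For H3K27ac, 9 members had a promoter peak in EAKO and the same 9 in Flox, all but Pck1, and the site was shared in 9 of 9. None had one in EAKO alone (1.83% of all genes) or in Flox alone (5.18%). At a q-value of 0.001, or with equal numbers of best peaks, Fabp4 was left in EAKO alone. By place in the list, Dgat2, Cd36 and Fabp4 stood higher in EAKO and the other 6 lower, also when ranked by fold enrichment, with the widest gaps at Agpat2, Lpin1 and Dgat1. Dgat2 (rank 30 in EAKO, 40 in Flox) and Gpam (top 20.7% in EAKO, 20.1% in Flox) were nearly level. The peaks of Cd36 and Fabp4 were weak in both lists. Over all 12486 genes with both, 37.2% stood higher in EAKO. The median gap, EAKO minus Flox in percentage points of the list, was 4.35 for the members and 1.22 for all genes, a positive value being a lower place in EAKO. The members' median was the gap of Slc27a1. Gaps ran both ways, from Cd36 (top 65.0% in EAKO, 73.8% in Flox) to Agpat2 (77.7% in EAKO, 29.1% in Flox). Gaps have less room near the top of a list, where all genes stood (median top 12.9% in EAKO, against 25.4% for the members). Whether the members shifted more than other genes was not tested. Near the members 12 of 45 EAKO peaks were single, or 26.7% (16.0 to 41.0), against 26.0% of the list, and 20 of 53 Flox peaks, or 37.7% (25.9 to 51.2), against 35.9%.

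For ATAC the same 8 promoters, all but Pck1 and Cd36, were open in EAKO and in Flox, at the same site in 8 of 8. None was open in EAKO alone (0.807% of all genes) or in Flox alone (2.75%). Lpin1, Dgat1 and Lpl stood higher in EAKO and the other 5 lower, against 36.1% of 13941 genes higher in EAKO. Slc27a1 was nearly level (top 3.49% in EAKO, 3.47% in Flox) and turned when ranked by fold enrichment (20.7% in EAKO, 26.1% in Flox), which gave 4 higher and 4 lower. The median gap was 0.31 percentage points for the members and 1.33 for all genes. Near the members EAKO had 56 ATAC peaks, of which 7 were single (12.5%, 6.19 to 23.6, against 8.98% of the list), and Flox also had 56, of which 8 were single (14.3%, 7.42 to 25.7, against 16.6%). The strongest single ones were weak, with 3.87 near Lpl in EAKO and 8.53 near Dgat2 in Flox. With 1 library per group, how far a place shifts between replicates was not measured.

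**Figure D4:**
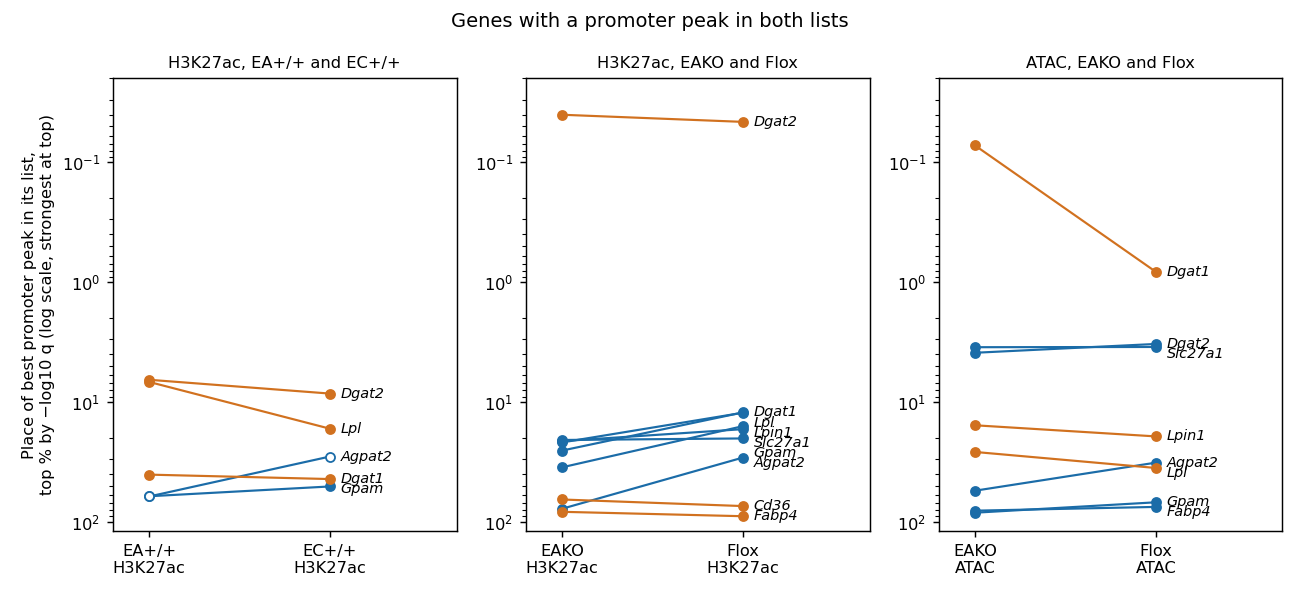
Place of the best promoter peak in its own list (top percent by −log10 q, log scale, strongest at the top) for members with a promoter peak in both lists of a pair, EA+/+ and EC+/+ H3K27ac, EAKO and Flox H3K27ac, and EAKO and Flox ATAC. Orange lines are genes placed higher in the first list and blue lines genes placed lower, and open circles mark Agpat2 in the knock-in pair, whose peaks do not overlap. In EAKO and Flox H3K27ac, 3 lines are orange and 6 blue.

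The neighbourhoods held 25 Ets1 peaks in beige cells, 16 in CS and 3 in RT. H3K27ac peaks numbered 32 in EA+/+ and 35 in EC+/+, and 45 in EAKO and 53 in Flox. Per 10 kb of neighbourhood the median over members was 0.395 peaks in beige Ets1, against 0.204 over all genes, and 0.213 in CS Ets1, against 0.0917. The members exceeded the median of all genes in this way in every list but RT, where both medians were 0. Of the beige Ets1 peaks near the members, 20 of 25 overlapped a Flox ATAC peak, or 80% (85.5% of the list), and 19 of 25 a Flox H3K27ac peak, or 76% (77.4%). Of the CS peaks, 8 of 16 overlapped Flox ATAC, or 50% (53.4%), and 10 of 16 Flox H3K27ac, or 62.5% (64.3%). Of the 114 merged sites of all lists, 44 had a peak in 1 list alone and 12 in 6 or more.

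Another 33 genes of the same pathway, a list of related enzymes, carriers and regulators, were counted in the same way. Ets1 promoter peaks stood at 24 of them in beige cells, 16 in CS and 3 in RT (Agpat1, Pcx and Acsl1), where all genes gave 45%, 31.8% and 3.87%. The RT values were 8.14 for Agpat1, 10.7 for Pcx, which makes the oxaloacetate that Pck1 uses, and 8.61 for Acsl1, which activates fatty acids. In CS and not in RT there were 13 (28.3% of all genes), led by the fatty acid transporter Slc27a6 (9.86), the caveola protein Cav1 (7.04) and Agpat3 (6.92). Beige cells and not CS had 9 (16.5% of all genes), led by Pck2, the mitochondrial relative of Pck1 (27.4), Agpat4 (14.2) and Gpat3 (12.0), and CS and not beige cells had Mogat1 (4.94), where 3.28% of all genes did likewise.

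H3K27ac promoter peaks stood at 25 of the 33 in EA+/+ and 25 in EC+/+ (48.3% and 50.1% of all genes). EA+/+ alone had 4 (7.16% of all genes), led by the glycerol channel Aqp7 (5.86), Slc27a5 (3.29) and Slc27a2 (1.98), and EC+/+ alone had 4 (8.9%), among them Slc27a3 (5.16) and Angptl4, an inhibitor of Lpl (3.19). In the knock-out pair 28 had one in EAKO and 29 in Flox (58.7% and 62.1% of all genes), with Slc27a3 (4.14) in Flox alone (5.18%). ATAC peaks stood at 29 in EAKO and 30 in Flox (64.4% and 66.3% of all genes), with Slc27a2 (4.27) in Flox alone (2.75%). EAKO alone had none for H3K27ac (1.83% of all genes) or for ATAC (0.807%).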

How the data were processed

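Mature adipocytes or cultured beige adipocytes gave 9 libraries, 1 per group. The authors trimmed reads with trimmomatic, aligned them with BWA to mm10 and called peaks per library with MACS2 at a q-value under 0.05, and the submitters' notes also name SAMtools and deepTools. A control library is not given in the sources used here. Each deposited list gives a score, the fold enrichment (a linear ratio), the −log10 p-value, the −log10 q-value and a summit offset. The lists hold no read counts, and no value here uses the totals of reads that the study states. Peaks were joined to 54361 coding starts of GENCODE M21 with Python 3.11.15 and pandas 2.3.3, a peak being shared at 1 bp of overlap, and the code was checked against bedtools 2.31.1 and on simulated data. Wilson intervals came from statsmodels 0.14.6. Sequences were RefSeq's (GRCm38.p6). All 10 members were named, and of 33 other pathway genes the up to 3 with the highest promoter −log10 q in 1 list of a pair alone, plus those of RT, chosen after their values were seen. Of these, 1 gene that this rule names is not reported here. The members and lists were chosen with earlier results of these data known. Alternatives covered starts, ranges, thresholds, overlap and ranking.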

Additional observations from a re-analysis of the deposited data

How the results depend on the processing

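Of 192 values recomputed under another setting, 86 were equal to the reported one, 80 differed within a range of 1.5 times (for shares of single peaks, the 95% Wilson interval) and 26 lay outside it. All were values of the members, and the shares over all genes were not recomputed. With the outermost start only, promoter peaks numbered 5 in beige Ets1 and 5 in EC+/+ H3K27ac, and 1 in beige alone and 1 in EC+/+ alone. At a q-value of 0.001 they numbered 4 in CS Ets1 and 3 in EA+/+ H3K27ac, 4 in CS and not RT, 0 in CS and not beige, and 1 in EAKO H3K27ac alone. Of the 3 RT peaks near the members only the one near Gpam then remained, and it was single (100%). With 3 kb promoters RT Ets1 had 1 (Gpam), which was RT alone, and EA+/+ had 1 alone (Fabp4). CS and not beige fell to 0 with 500 bp promoters and to 1 with the summit inside the window, which also left 1 in Flox H3K27ac alone (Lpl). With equal numbers of best peaks CS and not RT had 3 and EAKO H3K27ac alone 1. At an overlap of 50% of the peak 71.9% of EA+/+ peaks were single. Ranked by fold enrichment, the median place of the members' promoter peaks was 72.3% in CS, 65.0% in EA+/+, 53.3% in EC+/+, 41.4% in EAKO and 26.0% in Flox H3K27ac, and 42.0% in EAKO and 44.0% in Flox ATAC, against 42.6%, 40.3%, 31.3%, 25.4%, 16.8%, 20.9% and 25.7% by −log10 q. The causes were not tested. Starts of all transcripts, a setting chosen after seeing the data, changed 2 of 19 values, both within that range: EA+/+ H3K27ac had 6 (Slc27a1 added) and EC+/+ alone had 2 (Slc27a1 lost). At a q-value of 0.001 EC+/+ alone had 4, with Gpam and Agpat2 added and Lpin1 lost. No paired analysis was possible because each group had 1 library and no test was made, and for the same reason no replicate could be left out.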
